A study of Homo sapiens with 14 samples.

Results

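The nuclear-encoded subunits of respiratory chain complexes I to IV were followed through 7 groups of IMR90 cells. They were taken from the gene annotation by symbol, as protein-coding genes named NDUFA, NDUFB, NDUFC, NDUFS or NDUFV with a number, SDHA to SDHD, the UQCR subunits, and the COX4 to COX8 subunits. This gave 66 of the 20149 protein-coding genes of the annotation. Of these, 37 belonged by symbol to complex I, 4 to complex II, 8 to complex III and 17 to complex IV. NDUFA4 was kept with complex I because of its symbol, although it is now regarded as a complex IV protein and RefSeq lists it as COXFA4.

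Complex I takes electrons from NADH and complex II takes them from succinate, an intermediate of the TCA cycle, and both hand them to ubiquinone. Complex III passes the electrons on to cytochrome c and complex IV passes them to oxygen, while complexes I, III and IV pump protons across the inner mitochondrial membrane. All subunits of complex II come from nuclear genes, whereas the catalytic core of complex IV and the membrane core of complex I also need subunits encoded by mitochondrial DNA. Replicative senescence, the arrest that ends the dividing life of fibroblasts, is known for altered mitochondria.

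IMR90 cells are primary human fetal lung fibroblasts, and their poly(A)-selected RNA was sequenced. I79 and I10 are the names of 2 isolates of these cells. I79 young, I79 old, I10 young and I10 old cells were proliferating (young) or had been passaged into replicative senescence (old). I79 ICM cells were I79 cells given ICM (inflachromene), a small molecule that binds HMGB1 and HMGB2, chromatin proteins of the high mobility group. WT and HMGB2 KD cells were the control and the cells in which HMGB2 had been knocked down. From which isolate WT and HMGB2 KD came, and whether WT received a control siRNA, is not in the labels. No label says that replicates came from separate cultures. The p-values of HMGB2 KD against WT thus measure the spread between these samples, which may be technical. Those of old against young rest on how far the 2 isolates differed in their change.

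WT, HMGB2 KD and I79 ICM had 2 libraries each. Each old or young group had 1 table of estimated reads for the 2 replicates its titles list, so its values carry no SD and no n. Reads per library on genes were between 33561766 and 41168932 for WT and HMGB2 KD, between 14598433 and 20055750 for the old and young tables, and 13290131 and 10971132 for I79 ICM. The 3 kinds of table had been counted in different ways and were tested only within a kind. HMGB2 itself was at 27.1 and 27.3 CPM (reads scaled to a common library size by TMM, edgeR's normalization) in WT against 3.22 and 3.64 CPM in HMGB2 KD, a log2 fold change of -2.99. The 9 fibroblast markers together held between 14136 and 45024 CPM in every table. The epithelial, endothelial and leukocyte marker lists were each at or below 158.6 CPM, and EPCAM, CDH1, SFTPC, CDH5, PTPRC and LYZ were under 1 CPM throughout. The leukocyte list stood at 24.4 CPM in I79 young and 26.7 CPM in I10 young against 158.6 CPM in I79 old and 80.8 CPM in I10 old. That difference was carried by CD68, a lysosomal protein of macrophages that other cells also make. The epithelial list went the other way, from 65.7 and 75.3 CPM in I79 and I10 young to 19.3 and 28.5 CPM in old, with KRT18 called lower. The fibroblast list held 24189 and 32109 CPM in WT against 37704 and 45024 CPM in HMGB2 KD, and 38357 CPM in I79 young against 14136 and 14405 CPM in ICM. The part of these lists in the results was not tested.

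The subunits were abundant transcripts. In the deposited TPM, a share of all transcripts corrected for their length, all subunits together held 11698 TPM in I79 young and 11147 TPM in I10 young, against 79014 and 81961 TPM for the 13 subunits encoded by mitochondrial DNA. In I79 young the highest level was 699 TPM for NDUFS5, a small accessory subunit of complex I. COX4I1, the regulatory subunit of complex IV found in most tissues, followed at 586 TPM, and COX8A, a small membrane subunit of complex IV, stood at 540 TPM. In the same table UQCRFS1, the Rieske iron-sulfur protein of complex III, was at 38.8 TPM and NDUFV3, an accessory subunit near the NADH-binding site of complex I, at 29.7 TPM. The transcripts of one complex were thus far from equal, as the plot of TPM by complex shows.

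**Figure D1:**
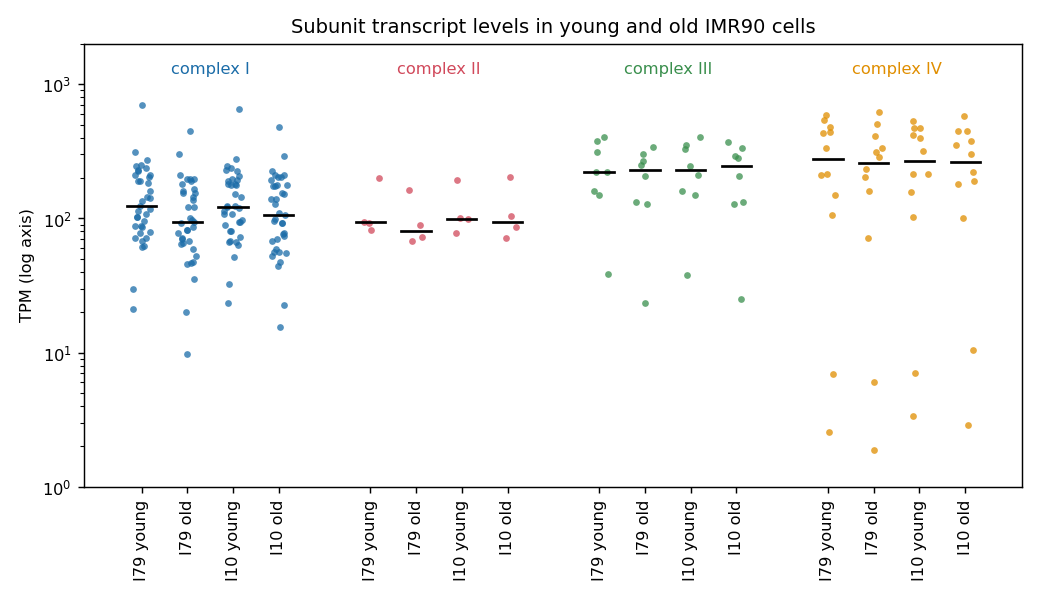
TPM of each subunit (log axis) in the 4 old and young tables, by complex. Each point is 1 of the subunits at 1 TPM or more in all 4 tables (37, 4, 8 and 12 for complexes I to IV), and the black lines are medians. The complex I median was 125 TPM in I79 young and 94.1 TPM in I79 old, and 122 TPM in I10 young and 106 TPM in I10 old.

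Several complex IV subunits exist as a widespread form and a form restricted to some tissues, and the restricted forms were hardly seen. COX4I2, known from lung and hypoxic cells, COX6A2, the heart and muscle form, and COX7B2 and COX8C were listed at 0 in all 10 tables. COX6B2, the testis form, held between 3 and 40 reads per table. COX7A1, the heart and muscle form of subunit 7a, was at 6.94 TPM in I79 young and 7.06 TPM in I10 young, against 443 and 419 TPM for the liver form COX7A2. COX7A1 was thus far below COX7A2 in both young tables.

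The first tested comparison asks what the subunits did when HMGB2 was knocked down. Calls came from edgeR's quasi-likelihood test over 15338 genes, with limits of 0.01 on the Benjamini-Hochberg adjusted p and of 0.6 on the size of the log2 fold change. Of the 66 subunits 59 passed the filter on low counts, and 1 of these 59 was called, against 5.2% of all genes tested (2.34% when only lower genes are counted). The called subunit was NDUFA7, an accessory subunit of the peripheral arm of complex I, at chr19:8373652-8386259 on the minus strand of GRCh37.

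NDUFA7 was at 31.7 and 25.2 CPM in WT against 13.8 and 15.5 CPM in HMGB2 KD. Both HMGB2 KD libraries lay below both WT libraries, with means of 28.4 ± 4.65 CPM (SD, n = 2) in WT and 14.7 ± 1.22 CPM (SD, n = 2) in HMGB2 KD. The log2 fold change was -0.95 with a standard error of 0.15 (edgeR, adjusted p = 0.00136). The gene overlaps RPS28 and a readthrough gene in the annotation, and how the counting handled such overlaps is not stated. Without WT 1 the log2 fold change was -0.78 and NDUFA7 was no longer called (edgeR, adjusted p = 0.01005).

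NDUFV2, COX5B and COX6C also had adjusted p-values under 0.05, but their changes were smaller than the 0.6 needed for a call. With NDUFA7 they made 4 of the 59 subunits under 0.05, against 1668 of the 15338 genes tested. NDUFV2, a flavoprotein-module subunit of complex I that holds an iron-sulfur cluster, was at 211 and 166 CPM in WT against 145 and 111 CPM in HMGB2 KD. Its log2 fold change was -0.56 with a standard error of 0.16 (edgeR, adjusted p = 0.0394). COX5B, a zinc-binding subunit on the matrix side of complex IV, was at 117 and 97.9 CPM in WT against 69.5 and 83.0 CPM in HMGB2 KD, a log2 fold change of -0.50 (edgeR, adjusted p = 0.0361). COX6C, a single-pass membrane subunit of complex IV, was at 111 and 84.4 CPM in WT against 70.0 and 69.2 CPM in HMGB2 KD, a log2 fold change of -0.49 (edgeR, adjusted p = 0.0413). In each of the 3 genes the HMGB2 KD libraries lay below the WT libraries. COX5B and COX6C have 7 and 17 named pseudogenes in the annotation, with which reads can be shared.

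Across all subunits the fitted differences leaned to lower values, and this lean was not tested. The median log2 fold change of the 59 subunits was -0.13, beside 0.00 over all genes tested, and 44 of the 59 had a negative value (49.7% of all genes). Complex IV had the lowest median, -0.34 over 13 subunits, followed by complex III with -0.23 over 8, complex I with -0.10 over 34 and complex II with -0.04 over 4. In 22 of the 59 subunits both HMGB2 KD libraries lay below both WT libraries, against 26.4% of all genes, and in 2 of them both lay above, against 27.4% of all genes. Scaling by library totals turned the share of called genes that were higher from 55.0% to 44.3% over all genes. In bulk samples, fewer cells of a type and less RNA per cell cannot be told apart.

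A single WT library took part in that lean. WT 2 was above WT 1 in only 4 of the 59 subunits, with a median log2 difference of -0.24 between the WT libraries, while the same difference over all genes was 0.01. Between the HMGB2 KD libraries the median difference over subunits was 0.03. The median log2 fold change of the subunits was -0.03 without WT 1 and -0.24 without WT 2. Whether the high values of WT 1 or the knockdown set the lean cannot be told apart with 2 libraries a group, and the plot of subunits by library shows WT 1 apart from the other three.

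**Figure D2:**
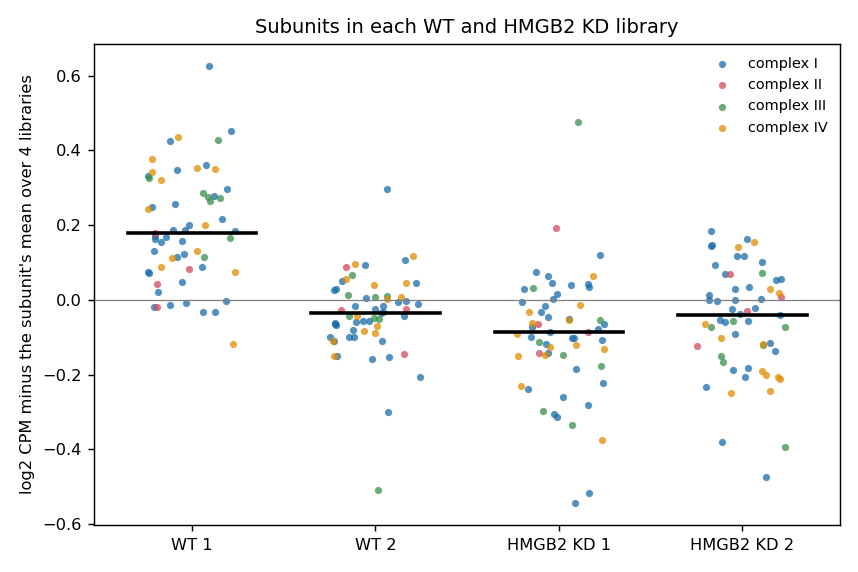
Level of each of the 59 subunits in each WT and HMGB2 KD library, as log2 CPM minus that subunit's mean over the 4 libraries, coloured by complex, with the median as a black line. The medians were 0.18 in WT 1, -0.03 in WT 2, -0.09 in HMGB2 KD 1 and -0.04 in HMGB2 KD 2.

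The core subunits of complexes I to III, most of which carry redox centres, were next. In complex I, NDUFS7 and NDUFS8, which hold the last iron-sulfur clusters before quinone, had log2 fold changes of 0.05 and -0.09, and NDUFV1, the NADH-binding flavoprotein, had 0.08. In complex II, SDHA, the flavoprotein that oxidises succinate, and SDHB, its iron-sulfur partner, had log2 fold changes of -0.02 and 0.17. In complex III, UQCRFS1 was at 88.4 and 76.1 CPM in WT against 80.5 and 70.9 CPM in HMGB2 KD, a log2 fold change of -0.12. Of the core subunits tested, only NDUFV2 had an adjusted p under 0.05 in edgeR.

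The ends of the range in the other complexes were likewise not called. SDHD, a membrane anchor of complex II, was lowest there at -0.27 on the log2 scale, and SDHB was highest. UQCRB, a quinone-binding subunit of complex III, was lowest there at -0.39 (edgeR, adjusted p = 0.107). Within complex IV, COX4I1 had -0.34, COX7A2 -0.36 and COX7A1 -0.35, while COX6A1, COX7B, COX7A2L and COX8A lay between -0.01 and 0.02. NDUFA4 had -0.03. In complex I the highest value was 0.13, for NDUFB6, a membrane-arm accessory subunit. The spread of differences within complex IV was wider than the differences between the medians of the complexes.

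**Figure D3:**
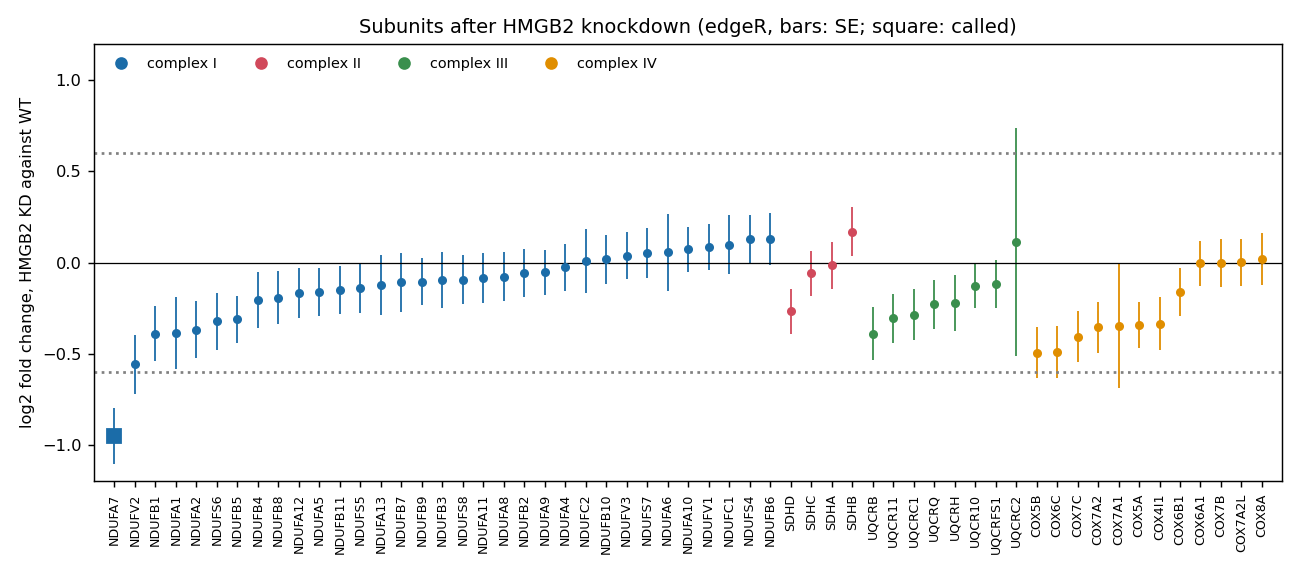
Log2 fold change of the subunits in HMGB2 KD against WT (edgeR, 2 libraries a group) by complex, with bars of 1 standard error and dotted lines at 0.6 and -0.6. NDUFA7, the square at -0.95, is the 1 called subunit. COX6B2, with few reads, and 1 other subunit are left out of the plot.

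The second comparison asks how the subunits differed between old and young cells. Over 15134 genes, with the isolate as a covariate, edgeR called 0 of the 61 subunits that passed the filter, against 9.36% of all genes. At an unadjusted p under 0.05 there were 13 of the 61 subunits and 6859 of the 15134 genes. With no limit on the size of the change, 5 of the 61 subunits and 4816 of the 15134 genes had an adjusted p under 0.05. DESeq2 also called 0 subunits. The fit had 4 tables and 1 residual degree of freedom. With 1 table a group, that degree of freedom is the difference between the isolates in their change from young to old. Under TMM scaling the median log2 fold change of the subunits was -0.07 beside -0.01 over all genes. Scaling by library totals moved the median of all genes to -0.22 and that of the subunits to -0.28, and turned the share of called genes that were higher from 60.5% to 32.6%. It also called NDUFA9, NDUFB6 and UQCRFS1 as lower.

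Lower in old cells, NDUFA9, a complex I subunit that binds NADPH near the quinone site, was at 59.5 CPM in I79 young and 34.3 CPM in I79 old. In I10 it was at 57.1 CPM in young and 38.4 CPM in old cells. The log2 fold change of NDUFA9 was -0.68 with a standard error of 0.11 (edgeR, adjusted p = 0.0159). Its reads were summed over coding and retained-intron transcripts. The coding transcripts were not tested apart, so the difference cannot be read as one of coding RNA alone. NDUFA9 also overlaps 2 other genes in the annotation. UQCRFS1 was at 78.5 and 52.6 CPM in I79 young and old and at 74.4 and 58.6 CPM in I10 young and old (log2 fold change -0.46, edgeR, adjusted p = 0.0368). NDUFB6 was at 40.5 and 24.3 CPM in I79 young and old, and at 40.3 and 33.5 CPM in I10 young and old, with a log2 fold change of -0.50 (edgeR, adjusted p = 0.0692). NDUFA6, an accessory complex I subunit, had the lowest value of complex I, -0.72, but rested on between 38 and 95 reads (edgeR, adjusted p = 0.126).

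Higher in old cells, COX7A2L, a COX7A relative known for tying complexes III and IV into supercomplexes, was at 88.5 CPM in I79 young and 132 CPM in I79 old. In I10 it was at 89.4 CPM in young and 121 CPM in old cells. The log2 fold change of COX7A2L was 0.51 with a standard error of 0.10 (edgeR, adjusted p = 0.0240). NDUFS4, an accessory subunit that stabilises the NADH-oxidising arm of complex I, was at 49.5 and 61.2 CPM in I79 young and old and at 46.4 and 68.8 CPM in I10 young and old (log2 fold change 0.44, edgeR, adjusted p = 0.0473). COX6B2 had 4 and 40 reads in I79 young and old and 4 and 12 reads in I10 young and old, a log2 fold change of 2.42 on very few reads (edgeR, adjusted p = 0.0401). NDUFA9 and COX6B2 passed both limits when the adjusted p was set at 0.05. COX6C, COX7C, NDUFA9, NDUFS5, NDUFV3, NDUFB3, NDUFA5, NDUFA1, NDUFA3 and NDUFC2 are outside the rule for named genes. They were chosen after their values were seen. UQCRC1, also outside the rule, is named only for its promoter letters.

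By complex, the medians of old against young were -0.12 for the 37 subunits of complex I, 0.06 for complex II, 0.02 for complex III and -0.01 for the 12 tested subunits of complex IV. The lowest and highest members of complex II were SDHB at -0.12 and SDHD at 0.18, and UQCR11, a small complex III subunit, was highest there at 0.22. Of the widespread complex IV isoforms, COX4I1 was at 197 and 232 CPM in I79 young and old and at 178 and 223 CPM in I10 young and old, a log2 fold change of 0.28 (edgeR, adjusted p = 0.106). COX7A2, COX6A1 and COX8A had -0.14, -0.04 and -0.04. Among the core subunits, NDUFS1, the largest of the iron-sulfur subunits of complex I, had -0.32 (edgeR, adjusted p = 0.0745), NDUFS3, at the foot of the quinone arm, -0.34 (edgeR, adjusted p = 0.0943), NDUFS8 -0.21, NDUFV1 -0.13, NDUFV2 -0.07 and NDUFS7 0.18.

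Under TMM scaling the isolates differed. In I79 the median log2 ratio of old to young was -0.19 over the 61 subunits and 0.00 over all genes, and in I10 it was 0.10 over the subunits and -0.01 over all genes. In 54 of the 61 subunits the ratio was lower in I79 than in I10, against 49.1% of all genes. This held for 33 of 37 subunits in complex I, all 4 in complex II, all 8 in complex III and 9 of 12 in complex IV. The signs were opposite in 29 of the 61 subunits, or 47.5%, and in 19.1% of all genes. Each isolate had 1 young and 1 old table, so the difference between isolates was not tested.

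The sign in I10 turned with the scaling. Scaling by library totals moved every log2 ratio by -0.16 in I79 and by -0.26 in I10, which gave subunit medians of -0.35 and -0.16 beside -0.16 and -0.27 over all genes. In the deposited TPM the medians were -0.34 and -0.15. The number of subunits lower in I10 old was 18 of 61 under TMM and 44 of 61 under either of the others. The ratio was lower in I79 than in I10 in 50 of 61 with library totals, against 38.7% of all genes, and in 49 of 61 in TPM. Opposite signs were then found in 13 and 12 of 61.

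NDUFA4 was at 159 TMM-scaled CPM in I79 young and 114 CPM in I79 old, a log2 ratio of -0.47, and at 140 CPM in I10 young and 161 CPM in I10 old, a log2 ratio of 0.21. The 95% exact intervals, which cover counting error only, ran from -0.56 to -0.39 in I79 and from 0.13 to 0.28 in I10. COX6A1, COX7B, COX8A and SDHA were the other 4 subunits whose intervals lay below 0 in I79 and above 0 in I10, and no subunit had intervals the other way round. These signs hold under TMM only: in I10 the ratios of the 5 subunits lay between -0.16 and -0.05 with library totals and between -0.22 and -0.03 in the deposited TPM. Under TMM, intervals lay below 0 in both isolates for 9 subunits and above 0 in both for 7. COX7A1 had 26 and 14 reads in I79 young and old and 45 and 54 reads in I10 young and old, so its ratios of -1.03 and 0.33 rest on few reads.

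**Figure D4:**
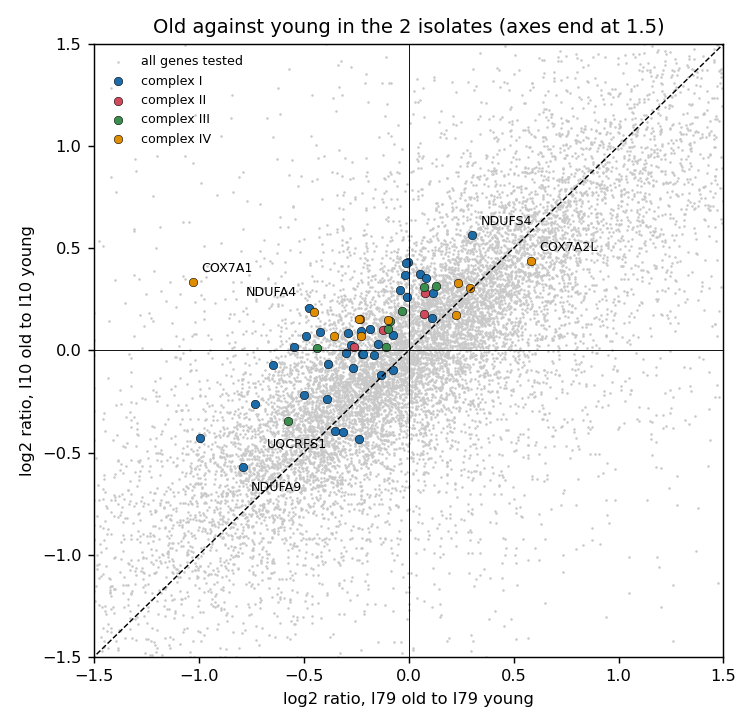
Log2 ratio of old to young in I79 (horizontal) and I10 (vertical) for the subunits, coloured by complex, over all genes tested in grey. The dashed line marks equal ratios, the axes end at 1.5, and COX6B2 lies outside. Of the 61 subunits 54 lie above the dashed line, with medians of -0.19 in I79 and 0.10 in I10 under TMM scaling, and -0.35 and -0.16 with library totals.

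Past 0.6 on the log2 scale lay 41.2% of all genes in I79 and 37.3% of all genes in I10. Of the 61 subunits, 5 were below -0.6 in I79, namely COX7A1, NDUFA6, NDUFA9, NDUFB6 and NDUFB3, a membrane-arm subunit of complex I, and only COX6B2 was above 0.6. In I10 only COX6B2 was past it. TPM is a share within each table and has no TMM factor. In TPM the summed level of the subunits was 11698 in I79 young and 9656 in I79 old. For I10 it was 11147 in young and 10263 in old cells. With library totals, which also have no TMM factor, the median log2 ratio of all genes was itself -0.16 in I79 and -0.27 in I10. A lower sum is thus not by itself a loss particular to the subunits. The summed level of the 13 mitochondrially encoded subunits was also lower in old cells, at 65474 TPM in I79 old and 73980 TPM in I10 old.

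Promoter sequences of the subunits whose adjusted p was under 0.05 in either test are shown to let the start sites be read beside the changes. They come from RefSeq on GRCh38.p14, which matched 56 of the 66 subunits, and run from 120 bases before to 30 bases after the first start listed for the gene. COX6B2, with few reads, and COX6C, which was not matched, are not shown. Capitals mark the letters of 3 motifs of factors known from respiratory genes, searched on both strands and overlaps allowed: GCGCNTGCG for NRF1, CCGGAAG for ETS factors such as GABPA, and AAGATGGC for YY1. The windows are chr19:8321346-8321495 for NDUFA7 (minus strand), chr18:9102579-9102728 for NDUFV2 (plus), chr2:97645942-97646091 for COX5B (plus), chr12:4648994-4649143 for NDUFA9 (plus), chr19:29213122-29213271 for UQCRFS1 (minus), chr5:53560519-53560668 for NDUFS4 (plus) and chr2:42361188-42361337 for COX7A2L (minus).
NDUFA7: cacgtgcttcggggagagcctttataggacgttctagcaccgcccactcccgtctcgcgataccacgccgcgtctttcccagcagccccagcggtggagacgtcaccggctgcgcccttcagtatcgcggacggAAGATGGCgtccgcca
NDUFV2: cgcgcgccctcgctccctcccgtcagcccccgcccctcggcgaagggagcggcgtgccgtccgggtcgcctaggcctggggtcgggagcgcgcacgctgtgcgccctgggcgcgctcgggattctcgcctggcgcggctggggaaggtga
COX5B: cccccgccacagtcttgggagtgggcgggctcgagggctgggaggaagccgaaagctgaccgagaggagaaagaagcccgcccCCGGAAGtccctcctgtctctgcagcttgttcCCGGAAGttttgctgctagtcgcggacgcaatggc
NDUFA9: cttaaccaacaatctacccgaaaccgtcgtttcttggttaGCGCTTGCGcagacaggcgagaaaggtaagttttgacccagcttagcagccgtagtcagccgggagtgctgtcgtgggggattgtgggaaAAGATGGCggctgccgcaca
UQCRFS1: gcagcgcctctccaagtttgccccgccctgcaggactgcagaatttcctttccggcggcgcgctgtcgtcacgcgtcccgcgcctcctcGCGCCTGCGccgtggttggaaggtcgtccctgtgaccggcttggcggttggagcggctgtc
NDUFS4: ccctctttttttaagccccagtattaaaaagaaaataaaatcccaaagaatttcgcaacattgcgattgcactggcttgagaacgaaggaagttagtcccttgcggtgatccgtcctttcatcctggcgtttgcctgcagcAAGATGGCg
COX7A2L: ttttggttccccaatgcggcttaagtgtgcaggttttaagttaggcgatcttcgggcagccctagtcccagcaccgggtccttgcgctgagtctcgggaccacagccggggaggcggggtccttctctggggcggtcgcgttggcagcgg

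Of these, NDUFA7, NDUFA9 and NDUFS4 hold the YY1 letters just after the start, although NDUFA7 was lower in HMGB2 KD, NDUFA9 lower in old cells and NDUFS4 higher. NDUFA9 and UQCRFS1 hold the NRF1 letters, COX5B holds the ETS letters at 2 places, and NDUFV2 and COX7A2L hold none of the 3. In the full windows of 300 bases the NRF1 letters occurred in 17 of the 56 subunit promoters (30.4%) and in 8.05% of all 27305 promoters. The ETS letters occurred in 15 of 56 (26.8%) and in 10.7% of all, and the YY1 letters in 8 of 56 (14.3%) and in 3.03% of all. The set of all promoters was not limited to protein-coding genes, unlike the subunits, so these shares are not of like sets. In all 8 subunits with the YY1 letters, NDUFA3, NDUFA6, NDUFA7, NDUFA9, NDUFS4, NDUFS7, SDHB and UQCRC1, they began between 11 and 26 bases after the start, while 53.6% of all promoters with these letters held them after the start. A match of letters is a description of the window and not a site of binding.

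The third comparison sets I79 ICM beside I79 young, with WT beside I79 young as a second ratio between kinds of table. WT is of another kind than ICM and of unknown isolate, so its ratio does not measure what the counting of ICM brings. Values were log2 ratios of CPM over genes listed in all kinds of table, with no test. The median over 61 subunits was 0.23 for ICM, beside -0.00 over all 13765 genes compared, and 0.08 for WT, beside -0.03 over all genes. ICM was above 0.6 for 14 subunits and below -0.6 for 4, where 59.3% of all genes were past 0.6 either way. WT was above 0.6 for 8 subunits and below -0.6 for 6, where 42% of all genes were past it, and these 6 include subunits listed at or near 0 in WT. With coding reads alone the ICM median was 0.41, beside -0.11 over all genes. Treatment and counting cannot be told apart in these ratios.

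Some complex I and II subunits had low ICM values in both libraries. SDHA was at 55.9 and 56.0 CPM in ICM, while I79 young had 116 CPM and WT had 126 and 120 CPM. NDUFA5, an accessory complex I subunit, was at 29.5 and 26.9 CPM in ICM, 51.1 CPM in I79 young and 67.2 and 68.1 CPM in WT. Of the 37 complex I subunits, however, 26 had a positive ratio in ICM and 11 a negative one. Higher in ICM, NDUFA1, an X-linked membrane subunit of complex I, was at 99.5 and 104 CPM, against 55.5 CPM in I79 young and 48.4 and 35.2 CPM in WT. With coding reads alone the log2 ratio to I79 young went from 0.88 to 0.30 for NDUFA1. It went from -1.05 to -0.67 for SDHA and from -0.86 to -0.71 for NDUFA5. In complex IV 12 of 12 subunits had a positive ratio in ICM, COX7C with 0.00, and 10 of 12 had one in WT. With coding reads alone 3 of the 12 were negative in ICM, COX6C with -0.31, COX7A2L with -0.59 and COX7C with -0.70. The 12 include COX6B1, which was hardly counted in I79 young.

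The same I79 young table is the control for I79 old, so both ratios are given side by side and not related to each other. SDHA had a log2 ratio of -1.05 in ICM and -0.12 in I79 old, NDUFA9 had 0.26 in ICM and -0.79 in I79 old, and COX7A2L had 0.22 in ICM, or -0.59 with coding reads alone, and 0.58 in I79 old. HMGB2 had -4.73 in ICM and -1.67 in I79 old. The ICM ratios are on CPM over shared genes and the I79 old ratios on TMM-scaled CPM. The ICM tables list reads by region: 24.2% and 24.9% of the subunits' region reads were in 5′ UTRs and 5.79% and 5.47% in 3′ UTRs, where all genes had 10.7% and 10.9% in 5′ UTRs and 26.1% and 24.99% in 3′ UTRs.

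Some subunits were hardly counted in one kind of table although other tables held many reads. NDUFS1 and NDUFS3 were listed at 0 in all 4 WT and HMGB2 KD tables, and NDUFA3, a small membrane subunit of complex I, was at 0, 8, 0 and 0 reads there. UQCRC2, a core protein of complex III, had 42 and 15 reads in WT and 47 and 19 reads in HMGB2 KD. In ICM these genes were at 60.3 and 63.8, 43.1 and 45.7, 49.7 and 50.5, and 128 and 131 CPM. NDUFA6 was at 88.6 and 79.1 CPM in ICM but at 4.76 CPM in I79 young and 6.77 and 6.63 CPM in WT. These values follow the kind of table, so no level of these genes was read across kinds, and leaving them out with COX6B1 and NDUFC2, a choice made after seeing the data, gave medians of 0.24 for ICM and 0.11 for WT.

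In the old and young tables, reads are given per transcript and could be summed only where the transcript is in the annotation. The transcript tagged as canonical was there for 61 of the 66 subunits. COX6B1, COX7A2 and COX7B were among those without it, and NDUFB6 has no such tag. COX6B1, the widespread form of a subunit that faces the intermembrane space, kept between 3 and 10 reads there and gave no value for old against young. It was at 122 and 103 CPM in WT against 102 and 99.2 CPM in HMGB2 KD. COX7A2 and COX7B, also without their canonical transcript, held 1631 and 434 reads in I79 young. Whether the missing transcript accounts for the low count of COX6B1 was not tested.

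**Figure D5:**
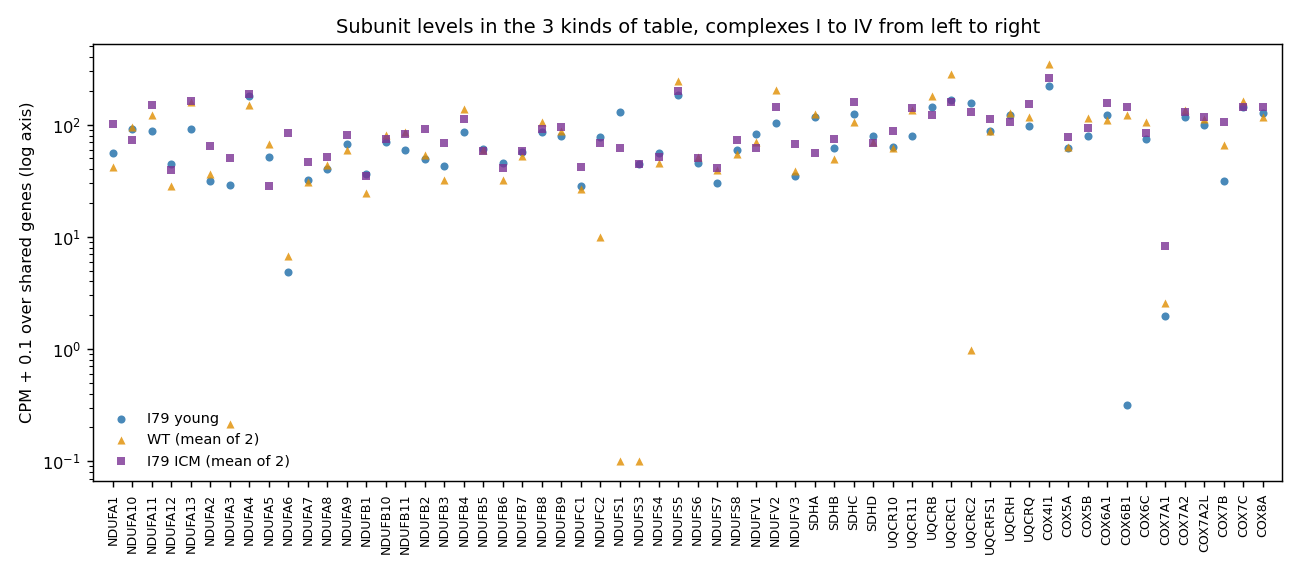
Level of the subunits compared, 1 of them left out, as CPM over shared genes plus 0.1 (log axis), in I79 young (circles), WT (triangles, mean of 2) and I79 ICM (squares, mean of 2). Most subunits lie within a narrow band, while NDUFS1, NDUFS3, NDUFA3 and UQCRC2 in WT and COX6B1 in I79 young lie far below it.

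The leading transcript of a subunit was the same in all 4 old and young tables for 54 of the 62 subunits with any TPM. COX7A2L-201 held 97.7% and 98.3% of the gene's TPM in I79 young and old and 98.2% and 98.3% in I10 young and old, so its level rested on 1 transcript. UQCRFS1 had 1 transcript with 100% in every table. NDUFA9 was spread over several, and its retained-intron transcript NDUFA9-202 held 28.8% and 23.5% in I79 young and old and 29.5% and 33.2% in I10 young and old. NDUFA7-201 held 76.6% and 69.1% in I79 young and old and 63.4% and 81.7% in I10 young and old, with no common direction.

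Other genes of the pathway were taken from lists of assembly factors, regulators, carriers and mitochondrially encoded subunits. After HMGB2 knockdown, edgeR called 2 of 14 regulators of mitochondrial gene expression and 1 of 17 carriers and TCA cycle genes, all lower, against 2.34% of all genes called lower and 5.2% called either way. TFAM, which packages and transcribes mitochondrial DNA, was at 39.6 and 39.5 CPM in WT against 24.4 and 19.6 CPM in HMGB2 KD (log2 fold change -0.84, edgeR, adjusted p = 0.00193). TFB1M, which methylates mitochondrial ribosomal RNA, was at 44.9 and 40.6 CPM in WT against 28.8 and 27.0 CPM in HMGB2 KD (log2 fold change -0.61, edgeR, adjusted p = 0.00878). CYCS, cytochrome c, which carries electrons from complex III to complex IV, was at 148 and 121 CPM in WT against 85.1 and 83.8 CPM in HMGB2 KD (log2 fold change -0.67, edgeR, adjusted p = 0.00569). In each of the 3 genes the libraries of the groups did not overlap. TFAM lost its call without HMGB2 KD 2, CYCS without HMGB2 KD 1, HMGB2 KD 2 or WT 1, and TFB1M without any single library.

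PPARGC1A, a coactivator that drives mitochondrial biogenesis, was at 11.2 and 10.8 CPM in WT against 6.47 and 3.08 CPM in HMGB2 KD. Its log2 fold change was -1.21 and it was not called (edgeR, adjusted p = 0.0106), but it was called by DESeq2 (adjusted p = 0.00126), with library totals, with no filter and with the replicate block. The log2 fold change was -0.76 without HMGB2 KD 2, where it was not called, and -1.84 without HMGB2 KD 1. NRF1, a transcription factor of respiratory genes, had -0.24 (edgeR, adjusted p = 0.459). Of the 13 mitochondrially encoded subunits, 17 ATP synthase genes and 44 assembly factors tested, edgeR called 0, and their medians were -0.01, -0.13 and -0.09. An unadjusted p under 0.05 was found for 0, 5 and 8 of them, against 3662 of all 15338 genes. DESeq2 called 0 of each of these 3 lists.

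In old against young cells edgeR called 1 of 13 mitochondrially encoded subunits and 1 of 13 regulators, both lower, against 9.36% of all genes called. DESeq2 called 2 of the 13 mitochondrially encoded subunits, MT-ND6 and MT-CYB, and 1 of the 13 regulators. MT-ND6, the complex I subunit encoded on the light strand of mitochondrial DNA, was at 30.7 and 10.96 CPM in I79 young and old and at 31.4 and 14.5 CPM in I10 young and old (log2 fold change -1.30, edgeR, adjusted p = 0.00790). The RNA was poly(A)-selected and strand is not given, so whether these reads come from the MT-ND6 messenger RNA cannot be told. PPRC1, a relative of PPARGC1A, was at 50.8 and 29.4 CPM in I79 young and old and at 50.2 and 28.7 CPM in I10 young and old (log2 fold change -0.80, edgeR, adjusted p = 0.00969). TFAM had -0.75 (edgeR, adjusted p = 0.0185), CYCS -0.62 (edgeR, adjusted p = 0.0360) and PPARGC1A -2.81 on between 5 and 54 reads (edgeR, adjusted p = 0.0150), none of them called. NRF1 had -0.11. Of 18 ATP synthase genes, 46 assembly factors and 17 carriers and TCA cycle genes, edgeR called 0, with 3, 17 and 8 at an unadjusted p under 0.05 and medians of -0.13, -0.19 and -0.03. DESeq2 called 0, 1 and 0 of them, the 1 being COX20, which helps assemble complex IV and was named after its value was seen.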

How the data were processed

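RNA sequencing tables of 14 samples in 7 groups were analysed. WT and HMGB2 KD tables hold whole-number read counts per gene, I79 ICM tables hold fractional, estimated counts per gene and region, and the old and young tables hold estimated counts and TPM per transcript, all as deposited by the authors. The submitters' processing notes name STAR 2.6.0c, featureCounts, DESeq2, deepTools and GRCh37. Which counter made which table, and strand, are not given in the sources used here. Summary rows, 16.9% to 18.0% of WT and HMGB2 KD counts, were left out. Transcripts were summed to genes by identifier, matching 97.7% of identifiers and between 97.2% and 97.4% of reads, and estimated counts were rounded.

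Genes were tested with edgeR 4.0.16 (R 4.3.3, limma 3.58.1), using TMM, a filter on low counts, the quasi-likelihood test and Benjamini-Hochberg adjustment over all genes. Old against young had the isolate as a covariate. The limits for a call were 0.01 on the adjusted p and 0.6 on the size of the log2 fold change. ICM ratios used a prior count of 2 over 13765 genes. DESeq2 1.42.0, library totals, no filter, other thresholds, counts rebuilt from TPM, no covariate, a replicate block and leaving out each library were the alternatives. Scaling each isolate by totals or TPM was added after seeing the data. On simulated data in which 200 genes were given a log2 change of 1.5, 80% were recovered with 2 false calls among 15338 genes for HMGB2 KD, and 77% with 2 among 15134 for old against young. Intervals are 95% exact Clopper-Pearson and cover counting error only. WT and HMGB2 KD replicates differed by more than sampling noise, with a chi-square per degree of freedom of 24.7 and 37.6, and the ICM replicates had 2.10.

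Named genes were called subunits, the lowest and highest of each complex, core subunits of complexes I to III, paired complex IV isoforms, NDUFA4, subunits listed at 0, and called or fixed pathway genes. The members and lists were chosen with earlier results of these data known. Values of 1 subunit are not reported here.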

Additional observations from a re-analysis of the deposited data

Results flagged for a closer look

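Under TMM scaling the change from young to old differed in direction between the isolates for the subunits as a whole and for 5 of them, and the difference was not tested, since each isolate had 1 table per age. The median log2 ratio of old to young over the subunits was -0.19 in I79 and 0.10 in I10. NDUFA4 had -0.47 in I79 and 0.21 in I10. COX7B had -0.45 in I79 and 0.19 in I10, without its canonical transcript in the summed reads. COX6A1 had -0.23 in I79 and 0.15 in I10. COX8A had -0.24 in I79 and 0.15 in I10. SDHA had -0.12 in I79 and 0.10 in I10. The direction in I10 turned for the median and for all 5 genes with library totals and in the deposited TPM, where the I10 median was -0.16 and -0.15.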

How the results depend on the processing

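In HMGB2 KD against WT 1 subunit was called under DESeq2, library totals, no filter and an adjusted p under 0.05, and between 0 and 2 when 1 library was left out. The median ran from -0.24 to -0.03 over those fits. With the replicate block the median was -0.12 and 1 subunit was called, while the calls over all genes went from 797 to 1243. The correlation of deviations between same-numbered replicates was 0.12 with 2 samples a group. What replicates of the same number share is not stated, and this correlation cannot decide it. Leaving out a library gave between 312 and 999 calls over all genes. In old against young, 0 subunits were called by edgeR and DESeq2, 2 at an adjusted p under 0.05, 1 with counts rebuilt from TPM, 3 with library totals, 2 with no filter and 1 with no isolate covariate. Over all genes these gave 1416, 2164, 3846, 2291, 3148, 4257 and 1748 calls. With library totals the median of the subunits was -0.28. The I10 median of 0.10 was -0.16 with library totals and -0.15 in deposited TPM, the I79 median of -0.19 was -0.35 and -0.34, and both settings were chosen after seeing the data. The ICM median of 0.23 was 0.25 with WT as the control and 0.41 with coding reads, and 0.23 to 0.26 when 1 ICM library was left out. The causes were not tested. Among named genes, values that were not called changed sign for between 0 and 6 of 33 genes in a setting for HMGB2 KD and between 0 and 2 of 33 for old against young. Few reads limit COX6B2, COX7A1 and NDUFA6.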
